A study of Mus musculus with 6 samples.

Results

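Phosphoinositide 3-kinase (PI3K) genes were examined in sorted T cells with and without CTLA-4: 9 genes, read by 28 of the 45101 probe sets of an Affymetrix mouse array. They were the catalytic subunits Pik3ca, Pik3cb and Pik3cd, the regulatory subunits Pik3r1 and Pik3r5, the inhibitor Pik3ip1, the lipid phosphatases Inpp5d and Inpp4b, and the downstream kinase Akt1. A probe set was counted when the annotation of the array mapped it to exactly 1 of these symbols, and no probe set that the annotation maps to several genes named any of them. Of the 28, 25 were bright enough to be tested, among 27022 tested in all. The other 3, of which 2 read Pik3cd and 1 reads Akt1, lay under the floor of 35.4 in intensity on average and are given as levels only.

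Both groups of cells came from donors with the 5C.C7 transgenic T cell receptor, which recognises a peptide of moth cytochrome c (MCC), on a RAG2-/- CD45.1 background, so that the donors make no other T or B cell receptor. One group was wild type for CTLA-4, the inhibitory receptor that competes with CD28 for its ligands, and the other was CTLA-4-/- (CTLA-4 KO, here also the knockout). Cells of both were moved into B10.A hosts that then received MCC peptide with LPS, and were sorted 4 days later. The labels state neither the markers of the sort nor the age of the mice. There were 3 arrays of each genotype, numbered 1 to 3 in each, made from 2 µg of total RNA, and the labels call them biological replicates without naming separate animals. The spread behind the p-values is that between these arrays and may be partly technical.

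Class I PI3Ks phosphorylate a lipid of the inner plasma membrane to make PIP3, which recruits AKT and other proteins with lipid-binding domains. In T cells CD28 and ICOS bind the regulatory subunit and so bring the kinase to the membrane, and active AKT keeps FOXO transcription factors out of the nucleus. SHIP-1, the product of Inpp5d, removes a phosphate from PIP3, INPP4B acts on the lipid that SHIP-1 leaves, and PIK3IP1 is a transmembrane protein that binds the catalytic subunit and inhibits it.

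The labels were checked first on Ctla4, whose intensity was 4902 ± 385 in wild type and 795 ± 14.4 in the knockout (mean ± SD, n = 3 arrays). That is a log2 difference of −2.60 ± 0.10 (SE; adjusted p = 1.45e-06 by limma), and the groups did not overlap. By an exact two-sided permutation test p was 0.1, the lowest value possible with 20 arrangements. Only 1 probe set reads Ctla4, and its place relative to the deletion is not known here. The 9 measured T cell genes of a marker list, among them Cd3e, Cd4 and Thy1, were bright on every array, with a summed intensity of 81570 to 94080 in wild type and 81420 to 89410 in the knockout. Of these 9 none passed without the block and 1 was lower with it, Cd3g, a chain of the T cell receptor complex (8021 ± 933 and 6260 ± 155, no overlap, limma adjusted p = 0.122, and 0.029 with the block). Of 10 B cell markers on the array, 4 were bright enough to be tested, and Ighm was by far the brightest (8336 to 11060). The other tested ones were Cd79b (78.0 to 118), Ms4a1 (28.7 to 111) and Vpreb3 (6.02 to 74.4). Among those not tested, Cd79a stayed between 1.74 and 25.7. The list summed to 8888 to 11440 in wild type and 10810 to 11080 in the knockout. Summed levels of 13 myeloid and dendritic markers were 522 to 609 and 356 to 635, of 4 NK markers 73.4 to 175 and 92.9 to 135, and of both CD8 markers 262 to 422 and 315 to 513. The ratio of 5' to 3' signal of Actb, a sign of RNA integrity, was 0.418, 0.41 and 0.584 on wild type arrays 1, 2 and 3 and 0.567, 0.691 and 0.544 on the CTLA-4 KO arrays. With 3 arrays a genotype, precision is limited throughout.

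On single probe sets Pik3ip1 was the only member to pass in the fit without pairing: the PI3K inhibitor fell to 46.8% of its wild type mean on its brighter probe set. With arrays of the same number compared as pairs, both lipid phosphatases also passed, Inpp5d as higher and Inpp4b as lower, and 1 of the 3 tested Akt1 probe sets passed as higher. No probe set of a catalytic or regulatory subunit passed in either fit. With the probe sets of each gene averaged before the fit, and p adjusted over genes, both phosphatases passed without pairing too. The share of all genes that passed in that fit is not given here. In counts, 0 of 25 tested probe sets were higher and 1 was lower at an adjusted p of 0.05 (limma, adjusted over all 27022), where 0.785% of all tested probe sets were higher and 0.47% lower. At an unadjusted p of 0.05, 7 of the 25 passed, beside 4216 of all 27022 tested probe sets. Arrays of the same number deviated together from their group means, and with the number as a block 3 were higher and 4 lower, against 3.86% and 4.8% of all tested probe sets. The groups did not overlap for 3 higher and 5 lower probe sets of the 25, where 9.46% and 11.5% of all tested probe sets had no overlap. The median log2 difference of the 25, CTLA-4 KO minus wild type, was −0.056, and that of all tested probe sets was −0.041.

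**Figure D1:**
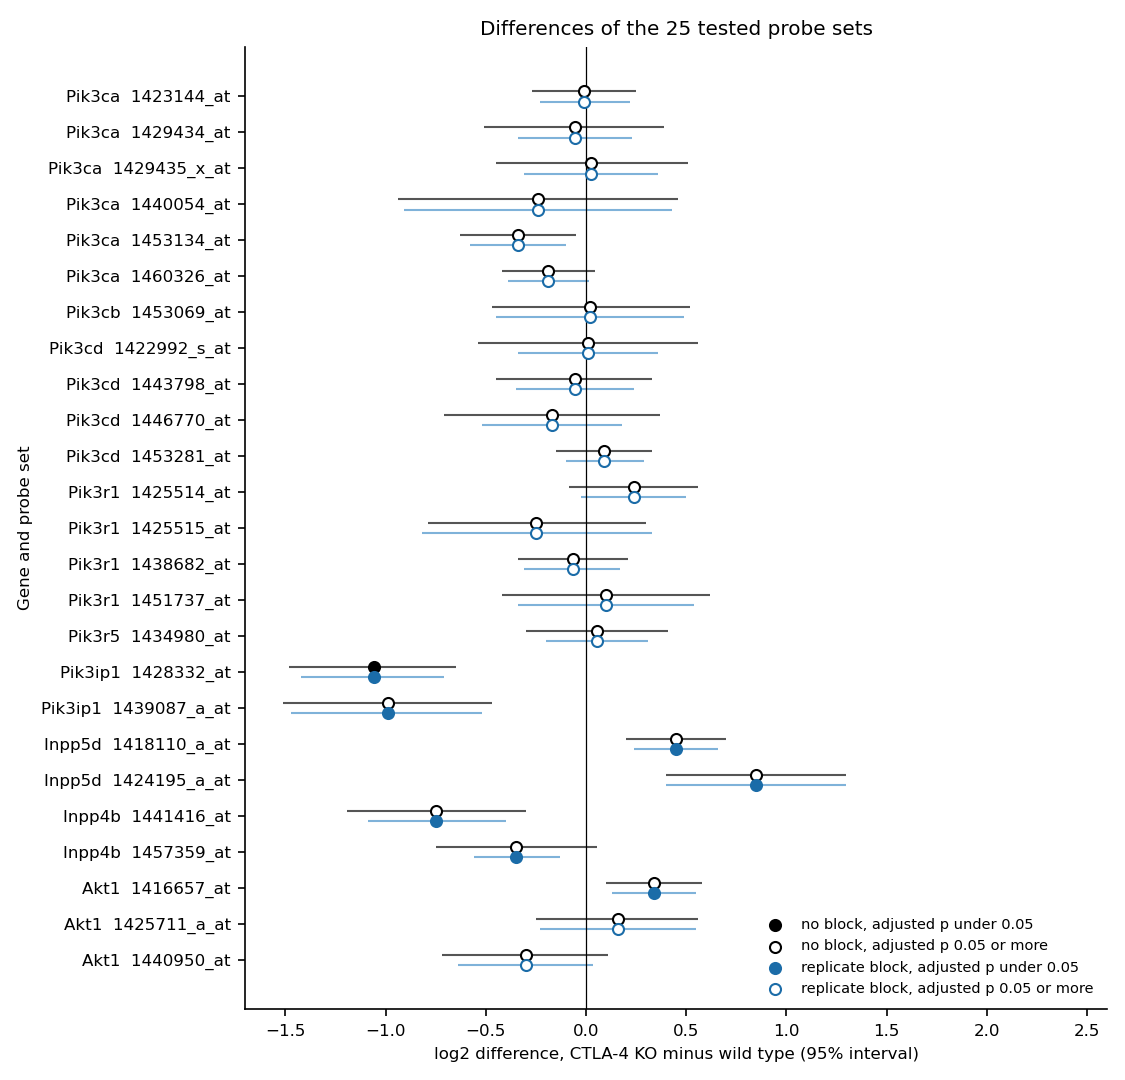
Log2 difference in intensity, CTLA-4 KO minus wild type (horizontal axis), of the 25 tested probe sets (vertical axis), with 95% intervals, without a block (black) and with the replicate block (blue); filled points had an adjusted p under 0.05. Both Pik3ip1 probe sets lie near −1, both Inpp5d probe sets lie above 0, and 16 probe sets of subunits lie between −0.34 and 0.24 with open points.

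Pik3ip1 has 2 probe sets. The brighter one, 1428332_at, had intensities of 451, 434 and 470 on wild type arrays 1, 2 and 3, against 247, 231 and 156 on the knockout arrays in the same order. The highest CTLA-4 KO array lay well under the lowest wild type array. The means were 452 ± 17.6 and 211 ± 49.0 (SD, n = 3 arrays), so that the CTLA-4 KO mean was 46.8% of the wild type mean. On the log2 scale this was a difference of −1.06 ± 0.188 (SE, 95% interval −1.48 to −0.65), with an adjusted p of 0.0268 in limma and of 0.00236 with the block. It stood at rank 170 by p among the 27022 tested probe sets. Array 3 of CTLA-4 KO was the lowest, and the differences within pairs 1, 2 and 3 were −0.83, −0.86 and −1.50.

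The dimmer Pik3ip1 probe set, 1439087_a_at, ran the same way, with a mean of 146 ± 19.2 in wild type and 66.4 ± 17.2 in the knockout. Its groups did not overlap, its pairs differed by −0.96, −1.26 and −0.76, and its log2 difference was −0.99 ± 0.235 (limma adjusted p = 0.072, and 0.0157 with the block). Here array 2 of CTLA-4 KO was the lowest, at 46.8. The direction was therefore the same in all pairs on both probe sets. The mean over both probe sets of Pik3ip1, taken before the fit, differed by −1.03 with a limma adjusted p of 0.00947. For such means p was adjusted over genes.

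The call of the brighter Pik3ip1 probe set without a block rested on having every array but 1. It was kept without CTLA-4 KO replicate 1 (adjusted p = 0.0341) and lost without each of the other arrays. The adjusted p was 0.0622, 0.0685 and 0.0993 when wild type array 1, 2 or 3 was left out and 0.094 and 0.0584 for knockout arrays 2 and 3, while the log2 difference stayed between −1.18 and −0.87. With the Actb ratio as a term the difference was −1.21 and the adjusted p 0.196, and with each array centred on its median they were −0.98 and 0.0544.

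The phosphatases had differences of opposite sign, and their single probe sets passed the test with the replicate block but not without it. Inpp5d, which encodes SHIP-1, had 1956, 2110 and 1922 in wild type and 3119, 2602 and 2516 in the knockout on its bright probe set, 1418110_a_at. Every CTLA-4 KO array was above every wild type array, with the first the highest. The knockout mean was 138% of that of wild type, and the log2 difference was 0.45 ± 0.113 (95% interval 0.20 to 0.70, limma adjusted p = 0.0873, and 0.0147 with the block).

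The other Inpp5d probe set, 1424195_a_at, is dim and had 103, 99.2 and 75.9 in wild type and 176, 161 and 200 in the knockout. Again the groups did not overlap, and the pairs differed by 0.70, 0.62 and 1.24. Its log2 difference was 0.85 ± 0.202 (limma adjusted p = 0.0735, and 0.0244 with the block). The mean over both probe sets of Inpp5d, taken before the fit, differed by 0.65 with a limma adjusted p of 0.0156.

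Inpp5d lies on chromosome 1, as does Ctla4, the gene targeted in these mice. In the RefSeq table of GRCm38.p6, 190 protein-coding genes start between them, and of the 108 of these that were tested 4 were called without a block, or 3.7%. On chromosome 1 as a whole 22 of 673 tested genes were called (3.27%), and on the other chromosomes 180 of 11297 (1.59%). Any part of this position in the Inpp5d difference was not tested. Among the other members, Pik3ip1 and Pik3r5 lie on chromosome 11 and the rest on chromosomes 3, 4, 8, 9, 12 and 13.

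Inpp4b had lower values in the knockout on both probe sets, 1441416_at and 1457359_at. On 1441416_at the values were 364, 332 and 270 in wild type and 241, 164 and 158 in the knockout, without overlap. This gave a log2 difference of −0.75 ± 0.203 (95% interval −1.19 to −0.30, limma adjusted p = 0.11, and 0.0138 with the block). All pairs ran the same way, at −0.56, −0.96 and −0.72.

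On the brighter Inpp4b probe set, 1457359_at, intensities were 1724, 2364 and 2556 in wild type and 1352, 2106 and 1760 in the knockout. These groups overlapped, because array 1 was the lowest of its genotype in both, while each CTLA-4 KO array was under the wild type array of its number. The fitted difference was −0.35 ± 0.183 (limma adjusted p = 0.396, and 0.0471 with the block), and the pairs differed by −0.35, −0.17 and −0.53. The size depended on which arrays were used. It was −0.18 without CTLA-4 KO replicate 1 and −0.24 without wild type replicate 3. It was −0.5 without CTLA-4 KO replicate 2 and −0.52 without wild type replicate 1. A fit that included the Actb ratio gave −0.64. The mean over both probe sets of Inpp4b differed by −0.55 with a limma adjusted p of 0.024.

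**Figure D2:**
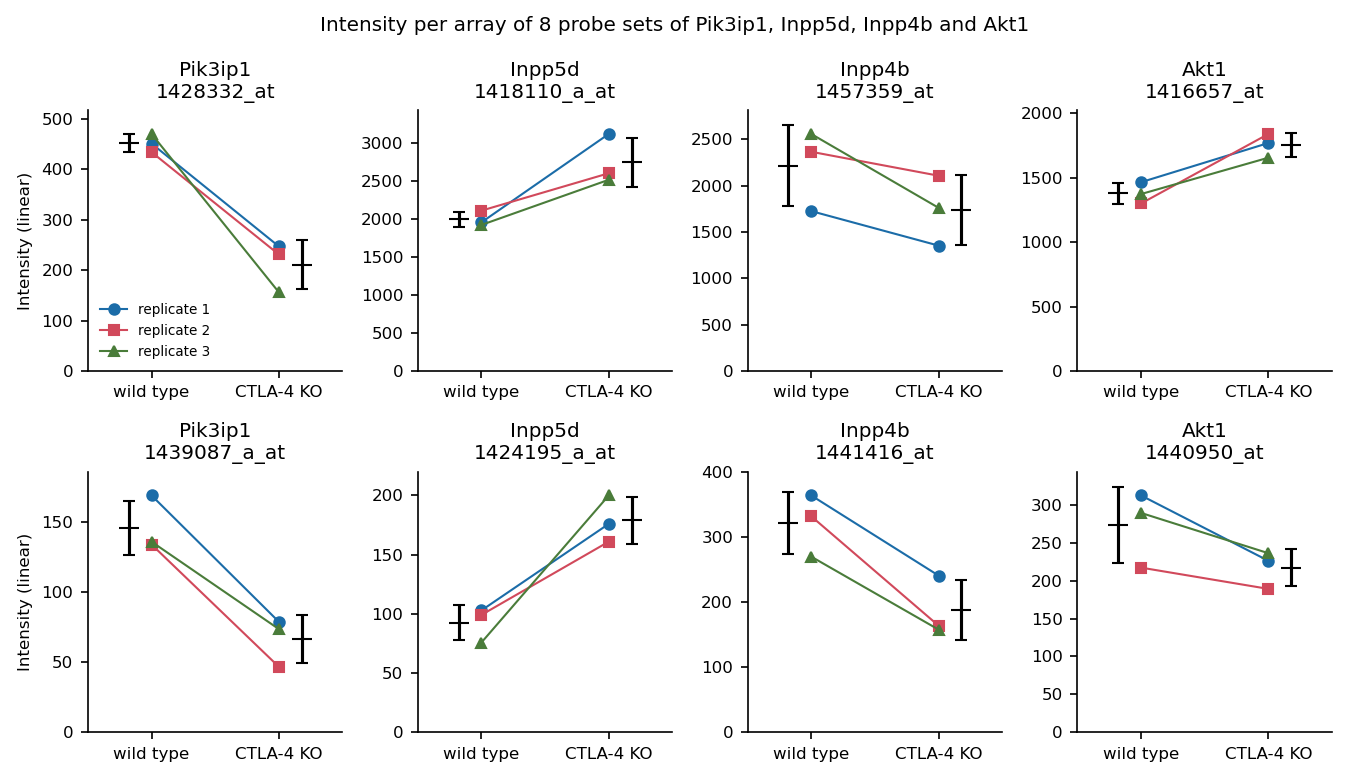
Linear intensity (vertical axis, from 0) on each array by genotype (horizontal axis) for 8 probe sets of Pik3ip1, Inpp5d, Inpp4b and Akt1; coloured lines join arrays of the same replicate number, and black bars give mean ± SD of 3 arrays. All lines fall for Pik3ip1 and Inpp4b and rise for Inpp5d, while Akt1 rises on 1416657_at and falls on 1440950_at.

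The stretches of 250 bases before the start sites of Pik3ip1, Inpp5d and Inpp4b are shown because these genes had values that ran one way on all their probe sets. They come from RefSeq for GRCm38.p6, and all 9 members matched the RefSeq table, with 13 start sites in all. Capitals mark AGGAAG, the core that Ets factors bind, and TATAA, the TATA box, searched on both strands together with GTAAACA (forkhead, the family of FOXO), TGTGGTT (Runx) and CACGTG (E-box). The Pik3ip1 stretch is chr11:3330481-3330730, that of Inpp5d chr1:87620062-87620311 and that of Inpp4b chr8:81342312-81342561, all on the plus strand.
Pik3ip1: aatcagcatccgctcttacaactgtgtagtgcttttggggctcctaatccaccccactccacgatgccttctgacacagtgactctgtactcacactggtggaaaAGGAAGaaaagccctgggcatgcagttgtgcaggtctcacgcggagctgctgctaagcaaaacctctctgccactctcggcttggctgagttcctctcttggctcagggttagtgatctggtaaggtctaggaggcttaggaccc
Inpp5d: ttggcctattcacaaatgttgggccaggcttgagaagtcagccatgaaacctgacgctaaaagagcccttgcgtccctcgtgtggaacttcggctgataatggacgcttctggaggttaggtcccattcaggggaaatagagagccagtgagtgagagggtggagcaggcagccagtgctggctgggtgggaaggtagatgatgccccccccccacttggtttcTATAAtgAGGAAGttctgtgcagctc
Inpp4b: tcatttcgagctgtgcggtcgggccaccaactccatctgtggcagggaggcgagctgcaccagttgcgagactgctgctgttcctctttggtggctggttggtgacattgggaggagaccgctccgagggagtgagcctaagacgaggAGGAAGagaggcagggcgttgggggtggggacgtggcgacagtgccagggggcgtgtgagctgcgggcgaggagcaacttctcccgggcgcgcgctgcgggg
Each of these held 1 AGGAAG, a motif found in 29.5% of all 32851 such windows of the table and in 3 of the 13 windows of members. In Inpp5d a TATAA stood next to it, which 22.8% of all windows hold. GTAAACA, held by 3.17% of all windows, was in 1 window of a member, before a start site of Akt1 (chr12:112674885-112675134, minus strand), on the reverse strand as shown in capitals in atctaccctctTGTTTACactcctggtga. TGTGGTT (4.4% of all windows) and CACGTG (6.02%) were in no member window. GC content was 42.4% to 78.4% in the 13 windows, of which 11 were above the median of 52.4% of all windows. These matches describe letters in short windows and do not show binding.

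Akt1, the kinase that PIP3 recruits, did not read alike on its probe sets. On 1416657_at the intensities were 1465, 1300 and 1373 in wild type and 1769, 1839 and 1655 in the knockout, without overlap. The fitted difference was 0.34 ± 0.108 (95% interval 0.10 to 0.58, limma adjusted p = 0.157, and 0.0456 with the block), with pairs at 0.27, 0.50 and 0.27. On 1440950_at, which is dimmer, the difference was −0.30 ± 0.188 (adjusted p = 0.483, and 0.269 with the block), with means of 273 ± 49.6 and 217 ± 24.8. The probe set 1425711_a_at had 159 ± 22.9 and 179 ± 5.75, and 1442759_at lay between 8.01 and 11.9 on all arrays, near background. The mean over its 3 tested probe sets differed by 0.066 with a limma adjusted p of 0.834. Whether the opposite signs of the Akt1 probe sets differ from each other was not tested.

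Catalytic subunits of PI3K showed no difference past the threshold. Pik3cd encodes p110δ, the leukocyte form that acts downstream of CD28 and ICOS. Its brightest probe set, 1453281_at, had 2812, 2471 and 2353 in wild type and 2902, 2525 and 2708 in the knockout, so the groups overlapped. The log2 difference was 0.092 ± 0.109 (95% interval −0.15 to 0.33, limma adjusted p = 0.733). The other 3 tested Pik3cd probe sets had differences of −0.17 to 0.011, and the 2 dim ones, 1422991_at and 1458321_at, averaged 24.1 and 19.9 in wild type and 36.4 and 17.9 in the knockout.

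Pik3ca, which encodes the widely expressed p110α, was read by 6 tested probe sets with differences between −0.34 and 0.026. The brightest, 1460326_at, had 1657, 1703 and 1592 in wild type and 1533, 1412 and 1395 in the knockout. These did not overlap, but the log2 difference of −0.19 ± 0.105 (95% interval −0.42 to 0.043) had a limma adjusted p of 0.426. On 1453134_at the means were 1640 ± 255 and 1285 ± 55.9, again without overlap. The difference was −0.34 ± 0.13, with a limma adjusted p of 0.245, or 0.0807 with the block. Its 95% interval, −0.63 to −0.049 without the block, did not include 0. The other 4 Pik3ca probe sets overlapped between the genotypes.

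Pik3cb, which encodes p110β, was dim on its only probe set, 1453069_at. It had 108, 116 and 91.6 in wild type and 137, 92.4 and 95.2 in the knockout, with overlap. The log2 difference was 0.021 ± 0.223 (95% interval −0.47 to 0.52, limma adjusted p = 0.976), and its sign depended on which arrays were used.

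Regulatory subunits did not pass either. Pik3r1, which encodes p85α and its shorter forms and stabilises the catalytic subunits, had 1013, 1152 and 1227 in wild type and 1128, 1112 and 994 in the knockout on its brightest probe set, 1438682_at. The log2 difference was −0.066 ± 0.123 (95% interval −0.34 to 0.21, limma adjusted p = 0.84). The other 3 Pik3r1 probe sets had differences of 0.24, −0.25 and 0.10, with adjusted p of 0.48 or more, and none had groups apart. Pik3r5, which encodes the p101 subunit that ties p110γ to G protein-coupled receptors, had 878, 810 and 679 in wild type and 998, 702 and 774 in the knockout on 1434980_at. Its log2 difference was 0.055 ± 0.161 (95% interval −0.30 to 0.41, adjusted p = 0.904).

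Over the 16 tested probe sets of catalytic and regulatory subunits the 95% intervals together ran from −0.94 to 0.62 on the log2 scale. The lower bound is that of Pik3ca 1440054_at and the upper that of Pik3r1 1451737_at, both dim, so together they describe no single probe set. They are not limits of detection, and differences of this size can go uncalled on dim probe sets with 3 arrays a genotype. For the brightest probe sets of Pik3cd and Pik3r1 the intervals reached no further than −0.34 to 0.33. These values are from bulk RNA, where fewer cells with a transcript and less of it per cell cannot be told apart, and with intensities no level is compared between genes.

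Around these genes, 7 lists of other PI3K pathway genes were read, with each gene taken at its brightest tested probe set. Of 91 distinct genes tested, 2 rose and 4 fell, where 1.19% of all 11990 tested genes were higher and 0.5% lower. With the replicate block 7 were higher and 12 lower, where the shares of all tested genes were 5.48% and 3.44%. The genes that rose were Trat1 and Mtm1, and those that fell were Bcl2l11, Il7r, Vav3 and Cyth3. None of the 6 kept its call in all fits that leave out 1 array: Bcl2l11 lost it without CTLA-4 KO replicate 2 (adjusted p = 0.0744), Trat1 kept it only without wild type replicate 2, Mtm1, Vav3 and Il7r only without wild type replicate 1, and Cyth3 in none. Median centring ended the calls of Cyth3 (adjusted p = 0.147) and Vav3 (0.0809), Vav3 was also not called after quantile normalization (0.0625) or with a pseudocount of 1 (0.0507), and with the Actb ratio as a term Bcl2l11 alone of the 6 was called (0.0433).

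**Figure D3:**
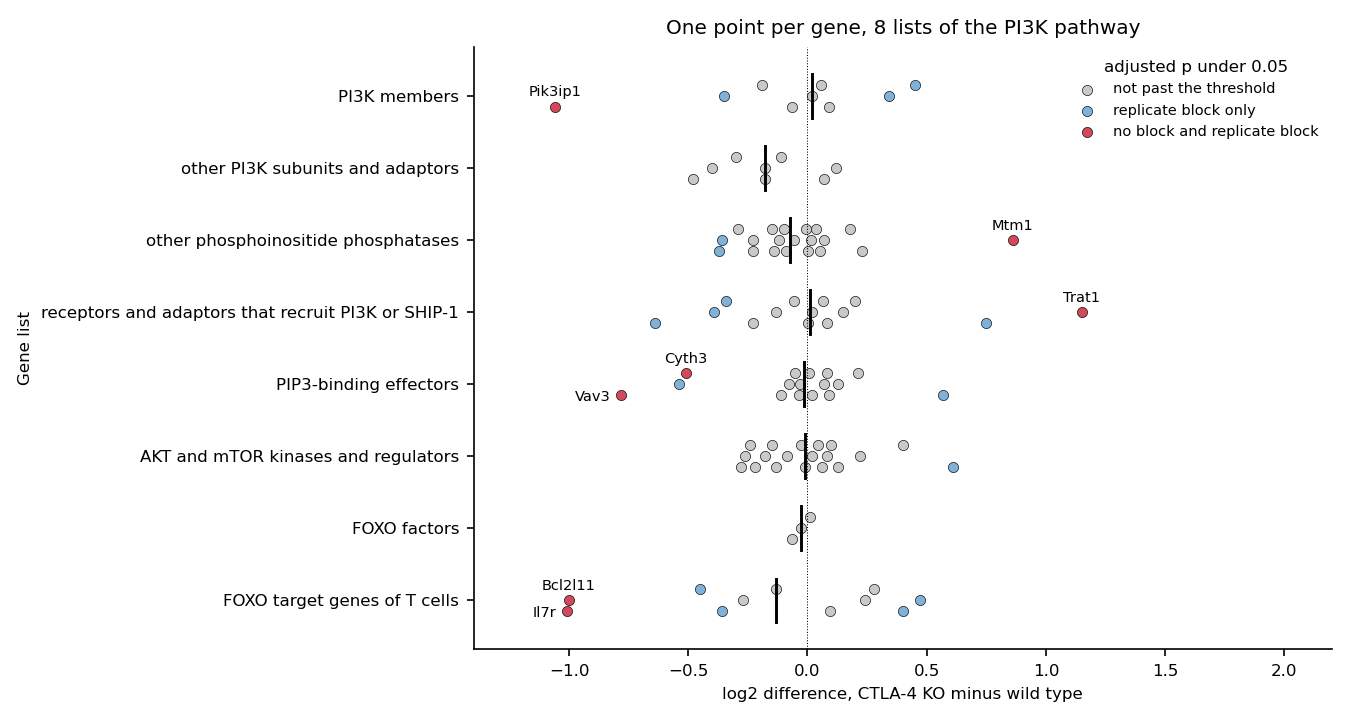
Log2 difference, CTLA-4 KO minus wild type (horizontal axis), of each tested gene in 8 lists (vertical axis); red points had an adjusted p under 0.05 without a block and with it, blue points with the replicate block alone, and black bars give list medians. Pik3ip1, Bcl2l11 and Il7r lie furthest to the left near −1, and Trat1 lies furthest to the right at 1.15.

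A list of receptors, adaptors and regulators around the recruitment of PI3K or SHIP-1 had 1 of 14 tested genes higher and none lower. Its median was 0.01 (−0.042 to 0.047 when 1 array was left out). The one was Trat1, a transmembrane adaptor of the T cell receptor complex that binds the PI3K regulatory subunit. Its intensities were 342, 685 and 399 in wild type and 929, 992 and 1177 in the knockout, a difference of 1.15 ± 0.225 (limma adjusted p = 0.0402, and 0.00165 with the block). All CTLA-4 KO arrays were higher, and the other Trat1 probe set differed by 1.09. With the block 2 genes of this list were higher and 3 lower: the adaptor gene Gab2 had means of 144 ± 35.5 and 256 ± 87.0 (adjusted p = 0.194, and 0.0243 with the block), though its other probe set differed by −0.33.

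Those lower with the block were Cblb, Ptpn11 and Cd28. Cd28, the costimulatory receptor, had 11960 ± 525 and 9472 ± 232 (adjusted p = 0.0731, and 0.0299 with the block), and its other probe set differed by −0.12. Ptpn11, which encodes the phosphatase SHP-2, had 14520 ± 780 and 11070 ± 780 (0.0606 and 0.0135), with other probe sets at −0.37 and 0.07. Cblb, a ubiquitin ligase that acts on the regulatory subunit of PI3K, differed by −0.64 (0.055 and 0.00136), with other probe sets at −0.36 and −0.25.

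Effectors that bind PIP3 or the product of SHIP-1 had none of 16 tested genes higher and 2 lower. Vav3, a signalling protein of activated lymphocytes, had 782, 1098 and 1108 in wild type and 546, 619 and 542 in the knockout, with no overlap. Its difference was −0.78 ± 0.158 (limma adjusted p = 0.0465, and 0.00247 with the block), and its other probe set differed by −0.82. Cyth3, an exchange factor for ARF GTPases that binds PIP3, fell from 2869 ± 144 to 2009 ± 60.7 (−0.51 ± 0.0977, limma adjusted p = 0.0369), and its other probe set differed by −0.54. The kinase gene Tec had 307 ± 11.2 and 465 ± 54.8 (adjusted p = 0.101, and 0.0214 with the block), and Plekha1, which encodes an adaptor that binds the product of SHIP-1, had 1456 ± 201 and 998 ± 135 (0.102 and 0.0058), with other probe sets at −0.56 and 0.14.

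Of 20 other genes listed as phosphatases of the pathway, 1 was higher and none lower. This was Mtm1, which encodes myotubularin, an enzyme of endosomal lipids. It had 853, 541 and 566 in wild type and 1133, 1175 and 1203 in the knockout, a difference of 0.86 ± 0.17 (limma adjusted p = 0.0419, and 0.00277 with the block), but its other 2 probe sets differed by −0.30 and 0.19. Inpp4a, the close relative of Inpp4b, had 2592 ± 77.3 and 2004 ± 103 (adjusted p = 0.104, and 0.0243 with the block). It differed by −0.37 there and by −0.1 on its other probe set. Inpp5f had 3565 ± 65.8 and 2777 ± 116 (0.0938 and 0.0223), with other probe sets at −0.26 and 0.26, and Synj1, the synaptojanin gene, had 3980 ± 95.8 and 3261 ± 56.8 (0.151 and 0.0577), with other probe sets between −0.33 and 0.11.

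Other PI3K subunits and adaptors had 0 of 8 tested genes past the threshold in limma in either fit, and 0 had an unadjusted p under 0.05 without the block. The smallest p were those of Pik3r4, which encodes the regulatory subunit of the endosomal PI3K (2817 ± 152 and 2476 ± 118, adjusted p = 0.405), Pik3ap1, the adaptor BCAP (85.9 ± 9.42 and 58.7 ± 21.1, adjusted p = 0.413), Pik3r6 (220 ± 5.6 and 172 ± 76.3) and Pik3c3 (1038 ± 132 and 913 ± 100). Among 19 AKT and mTOR genes none passed without a block and Eif4ebp1, a translation repressor that mTOR switches off, was higher with it (445 ± 22.5 and 689 ± 81.0, adjusted p = 0.0668, and 0.00863 with the block). Eif4ebp1 differed by 0.61 there and by 0.21 and 0.27 on its other probe sets. Mtor (1195 ± 155 and 979 ± 49.6, with its other probe set 0.36 higher in the knockout on the log2 scale), Mapkap1 (1337 ± 84.1 and 1554 ± 53.6) and Akt1s1 (113 ± 30.7 and 151 ± 13.2) had adjusted p of 0.331 or more.

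None of the 3 FOXO factors passed in limma in either fit. Foxo1 had 5434 ± 759 and 5437 ± 75.2 (adjusted p = 0.976), Foxo3 984 ± 116 and 982 ± 232, and Foxo4 316 ± 28.1 and 302 ± 42.1. Of 11 tested genes known as FOXO targets in T cells, none was higher and 2 were lower. Il7r, the interleukin-7 receptor, had 2179, 2725 and 4055 in wild type and 1520, 1352 and 1424 in the knockout (limma adjusted p = 0.0352), and its other probe set differed by −1.05. Bcl2l11, which encodes the death-promoting protein BIM, had 8665, 7150 and 11520 in wild type and 4095, 4501 and 4824 in the knockout, with means of 9110 ± 2220 and 4473 ± 365 (limma adjusted p = 0.0154, and 0.000247 with the block). Its 4 other probe sets differed by −1.02 to −0.27.

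With the block 2 of these FOXO targets were higher and 4 lower. Klf2, a transcription factor of quiescent T cells, had 3500 ± 860 and 4543 ± 545 (adjusted p = 0.272, and 0.0379 with the block), and the lineage factor gene Bcl6 differed by 0.47 (0.0609 and 0.0112). Ccr7, the lymph node homing receptor, had 3929 ± 285 and 2915 ± 602 (0.169 and 0.0186), and Sesn3, a stress-response regulator of mTOR, had 7896 ± 222 and 6164 ± 272 (0.0714 and 0.0196). Sesn3 differed by −0.36 there and by −0.11 on its other probe set. The list was not split by whether FOXO factors raise or lower a gene. It thus held genes with higher and genes with lower values, and its median was −0.13, beside 0.0018 over all tested genes. The sign of that median turned with 1 array left out: it was 0.063 without wild type replicate 3 and 0.047 without CTLA-4 KO replicate 1, and lay at −0.26 without CTLA-4 KO replicate 3, −0.24 without wild type replicate 2 and −0.22 without wild type replicate 1.

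The genes whose profile over the 6 arrays lay nearest to that of Pik3ip1 were Abca1, Ift80, Naip5, Hectd2 and Tmie. Nearness was the root-mean-square difference of log2 values after each gene's mean was removed, which was 0.123, 0.127, 0.151, 0.153 and 0.177 for them and had a median of 0.605 over all tested genes. Ift80, a gene of transport in cilia, had 2961 ± 154 in wild type and 1375 ± 146 in the knockout, and Abca1, the cholesterol exporter, had 1863 ± 289 and 844 ± 221. Tmie had 257 ± 22.0 and 118 ± 5.26, Hectd2 2220 ± 142 and 1020 ± 90.8, and Naip5 90.2 ± 16.9 and 35.3 ± 13.3. Since they were chosen for a profile like that of Pik3ip1, their lower levels in the knockout follow from the choice and are given without a test.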

How the data were processed

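The authors deposited 1 table of linear intensity values, 1 per probe set and array; Partek and MAS5 are named, without versions, per the submitters' processing notes. Each array had a mean of 500.003 after the highest and lowest 2% were trimmed, the scaling MAS5 applies. The handling of faint signals is not stated in these sources, and MAS5 values are noisy there.

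Groups came from sample titles. Values were turned into log2(intensity + 16), which understates changes of dim genes, leaving out 64 control probe sets. Those at or above the 40th percentile of the mean log2 value (35.4 in intensity) were tested with limma 3.58.1 in R 4.3.3 (eBayes with an intensity trend, Benjamini-Hochberg over 27022, threshold 0.05). The fit was run on simulated data whose residual spreads were shuffled over probe sets, so the intensity trend was not tested there. Alternatives were a replicate block, other filters, pseudocounts, scalings and moderation, array weights, the log2 Actb ratio as a term, the mean over a gene's probe sets, and arrays or pairs left out.

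Same-numbered arrays of the 2 genotypes deviated together from their group means (r = 0.371, 0.24 and 0.254 for numbers 1, 2 and 3, across probe sets, which are not replicates), so the numbers in the titles were taken as pairs and the blocked value is given where it changes a call.

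The annotation named 1 gene for 34958 probe sets, several for 932 and none for 9211, and 34754 matched RefSeq by gene ID. Every member was named with its tested probe sets, and from each other list the genes past the threshold and up to 4 with the smallest p, clone names passed over. Genes outside this rule that passed with the block were named after their values were seen. Members, lists and alternatives were chosen with earlier results of these data known.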

Additional observations from a re-analysis of the deposited data

How the results depend on the processing

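All probe sets: the count of 339 called (212 higher, 127 lower) became 2341 with the replicate block, 111 with no dimness filter, 20 with no intensity trend, 521 with array weights, 22 with the Actb ratio term, and 166, 46 and 65 without pairs 1, 2 and 3. In limma without moderation it was 0, with 3611 at an unadjusted p under 0.05. Leaving out 1 array gave 62 to 217. Median centring called 303, of which 247 were higher. Member probe sets: the count of 1 became 7 with the replicate block and 0 with no dimness filter, median centring, no intensity trend, no moderation, the Actb ratio term and without pairs 1, 2 and 3, where 5 to 7 had an unadjusted p under 0.05. Leaving out 1 array gave 0 to 1. In the settings with 0 called that keep the dimness filter, 2708 to 4326 of the 27022 tested probe sets had an unadjusted p under 0.05. With no dimness filter 5275 did, out of the larger number of probe sets fitted there. Of the 7, the 6 other than the brighter Pik3ip1 probe set passed in the replicate block fit alone, among settings that keep single probe sets. Pathway genes: the count of 6 became 19 with the replicate block, 0 with no dimness filter, no intensity trend or no moderation (20 to 24 at an unadjusted p under 0.05), 1 with the Actb ratio term, and 3, 2 and 0 without pairs 1, 2 and 3. Leaving out 1 array gave 0 to 4. The number of all tested genes at an unadjusted p under 0.05 is not given here. Ctla4 without moderation had −2.60 and an adjusted p of 0.0538.

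Signs turned for members near 0, all uncalled. Pik3cb had −0.037 with array weights, −0.12 without pair 1, and −0.14 to 0.11 over fits that leave out 1 array. Pik3cd had −0.032 over the mean of its probe sets. Pik3r1 had 0.023 under median centring, 0.051 without pair 3 and 0.0057 over the mean of its probe sets. Pik3r5 had −0.0079 and −0.01 without pairs 1 and 3, and −0.088 to 0.16 over fits that leave out 1 array. Pik3ip1, Inpp5d, Inpp4b, Akt1 and Pik3ca kept their sign on their brightest probe set in every setting. Median centring moved the median of all tested genes from 0.0018 to 0.091. The brighter Pik3ip1 probe set was called in 8 of 21 other settings, and its difference lay between −1.21 and −0.85 over the 21. The number of arrays and faint signals limit what can be called.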
